A study of Homo sapiens with 6 samples.

Results

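Protein tyrosine phosphatases of the classical family were followed in 6 RNA-seq libraries of HaCaT cells. The family has receptor-type genes, named PTPR, whose products cross the cell membrane, and nonreceptor genes, named PTPN, whose products lie inside the cell. Members were all genes whose symbol began with PTPN and a digit, or was PTPR with its letter and optional digit, that were not pseudogenes and had a read count in every library. This gave 36 of the 19493 genes with counts, 16 PTPN and 20 PTPR. A further gene, PTPN20, was listed without a value in any library and is not a member. Members were chosen by name, and the only measured value that chose them was the presence of a count, although the family was picked with earlier results of these data in view.

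HaCaT is an immortalised line of human skin keratinocytes. In all 3 groups the cells carried the photolyase of the marsupial Potorous tridactylus that acts on cyclobutane pyrimidine dimers, the most frequent lesions left in DNA by ultraviolet light. Control cells were not irradiated and their photolyase was inactive. UVC cells received 15 J/m2 at 254 nm with the photolyase inactive and were collected 6 h later. Cells of the third group received the same dose and 2 h of white light, which switches the photolyase on; they are called active photolyase here. Each group had 2 libraries, and the labels do not say whether these came from separate cultures or from a single clone of cells, so the p-values measure the spread between libraries, which may be technical. White light was given to the active photolyase group only, so an effect of light and an effect of the enzyme cannot be told apart.

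Tyrosine kinases add phosphate to tyrosines of growth factor receptors, junction proteins and signal carriers, and the classical tyrosine phosphatases take it off again. In the epidermis the balance between them sets signalling from the EGF receptor and the MET receptor, turnover of focal adhesions and the hold of cadherin junctions. Nonreceptor phosphatases are placed in the cell by their added domains, such as SH2, FERM or PDZ domains or an anchor to the endoplasmic reticulum. Receptor phosphatases carry extracellular parts that resemble adhesion molecules, and many have a second phosphatase domain with little or no activity. Lesions in the transcribed strand stop RNA polymerase II, and the chance of meeting such a lesion grows with the length of the gene. For this reason the genomic span of the tested members is set beside their changes further below.

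All classical tyrosine phosphatases share an active-site loop in which a cysteine attacks the phosphate and an arginine, with 5 residues between them, holds it. The codons of this loop are shown for 7 members that the results below turn on, as 42 bases of the coding strand in the 5′ to 3′ direction, with the cysteine and arginine codons in capitals. They were read from the main coding transcript of each gene in GENCODE release 29.
PTPN12: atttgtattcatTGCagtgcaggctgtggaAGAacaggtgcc
PTPN1: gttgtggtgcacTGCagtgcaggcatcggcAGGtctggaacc
PTPN6: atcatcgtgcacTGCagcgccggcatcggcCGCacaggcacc
PTPRE: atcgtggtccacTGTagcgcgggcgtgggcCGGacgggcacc
PTPRH: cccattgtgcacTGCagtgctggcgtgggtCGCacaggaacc
PTPRK: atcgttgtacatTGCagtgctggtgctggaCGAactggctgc
PTPRS: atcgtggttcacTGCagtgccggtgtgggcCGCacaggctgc
The loop was found in all 36 members. Its cysteine was written TGC in 33 genes and TGT in 3, PTPN2, PTPN14 and PTPRE, while all 6 arginine codons were in use. Each of the 16 PTPN transcripts held the loop once. Of the 20 PTPR transcripts, 11 held it once and 9 held it at 2 places, PTPRE, PTPRK and PTPRS among them. The members printed here therefore encode the same reaction centre while their transcripts moved in different directions after UVC.

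The libraries held 57669389 to 70005705 gene-assigned reads. Levels below are scaled cRPKM, the deposited corrected RPKM divided by the library's TMM factor, which was 0.884 to 0.886 in control, 1.18 in both UVC libraries and 0.954 to 0.957 with active photolyase. TMM takes most genes as unchanged, so each change is relative to the bulk of transcripts, and fewer transcripts per cell cannot be told apart from fewer cells. All 9 keratinocyte markers were above the filter, with a summed level of 14110 to 14890 scaled cRPKM in control, 11620 to 11950 after UVC and 14330 to 14440 with active photolyase. Mitochondrial genes took 3.32 and 3.92% of the reads in control, 5.13 and 5.28% in UVC cells and 4.09 and 3.21% under active photolyase. The melanocyte, fibroblast, endothelial and neural lists each summed to under 10 scaled cRPKM in every library. Leukocyte markers summed to 133 to 146 in control, 182 to 183 after UVC and 189 to 199.5 with active photolyase. Of its 11 genes CD3E, CD14, CD68 and CD74 passed the filter, and CD68 (47.2 to 79.9 scaled cRPKM) and CD74 (79.3 to 133) made up most of the sum. MS4A1 and NKG7 had no read in any library, and PTPRC, the leukocyte phosphatase, had at most 14 reads. The part of other cells and of the mitochondrial share in the results was not tested.

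In control cells the nonreceptor class was the larger, and after UVC it was not. The 16 PTPN genes summed to 304 and 308 scaled cRPKM in the control libraries, 137.5 and 139 after UVC, and 180 in both libraries with active photolyase. The 20 PTPR genes summed to 161.5 and 165, then 146 and 145, then 119 and 120.3. The lower PTPR sum after UVC rests on the TMM factors. In deposited cRPKM, without these factors, the PTPR sum was higher after UVC than in control, while the PTPN sum was still lower. The replicates lay close together, and in neither class did the sums of the groups overlap. PTPN12 alone made up 43.9% of the PTPN sum in both control libraries, 26.1 and 26.5% in UVC cells and 38.2 and 36.7% under active photolyase. PTPRF led the receptor class in every library, with 25.2 and 24.4% of its sum in control cells, 41.6 and 40.5% in UVC cells and 35.7 and 35.8% under active photolyase.

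**Figure D1:**
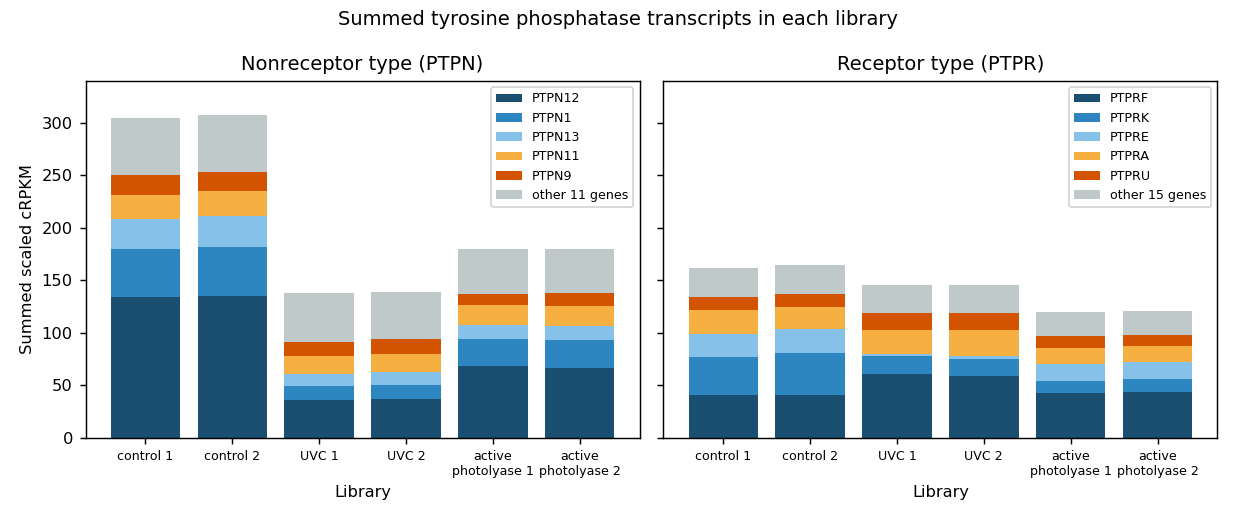
Summed scaled cRPKM (y axis) of the 16 nonreceptor and 20 receptor tyrosine phosphatase genes in each of the 6 libraries (x axis), with the 5 genes of highest control level in each class as coloured segments and the others in grey. The PTPN bars fall from 304 and 308 in control to 137.5 and 139 after UVC, mostly in the PTPN12 and PTPN1 segments, while the PTPR bars change less. The direction of the PTPR change after UVC depends on the TMM factors.

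Among nonreceptor genes the order of control levels was PTPN12, PTPN1, PTPN13, PTPN11, PTPN9 and PTPN2, and after UVC it became PTPN12, PTPN11, PTPN6, PTPN9, PTPN1 and PTPN13. The UVC levels of PTPN6, PTPN9 and PTPN1 lay within 13.1 to 13.5 scaled cRPKM, so their places in that order are not separated by the spread between libraries. Among receptor genes the order was PTPRF, PTPRK, PTPRE, PTPRA, PTPRU and PTPRH in control, and PTPRF, PTPRA, PTPRK, PTPRU, PTPRS and PTPRB after UVC. PTPRE and PTPRH dropped out of the leading 6 after UVC, and PTPRE stood in the second place with active photolyase.

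**Figure D2:**
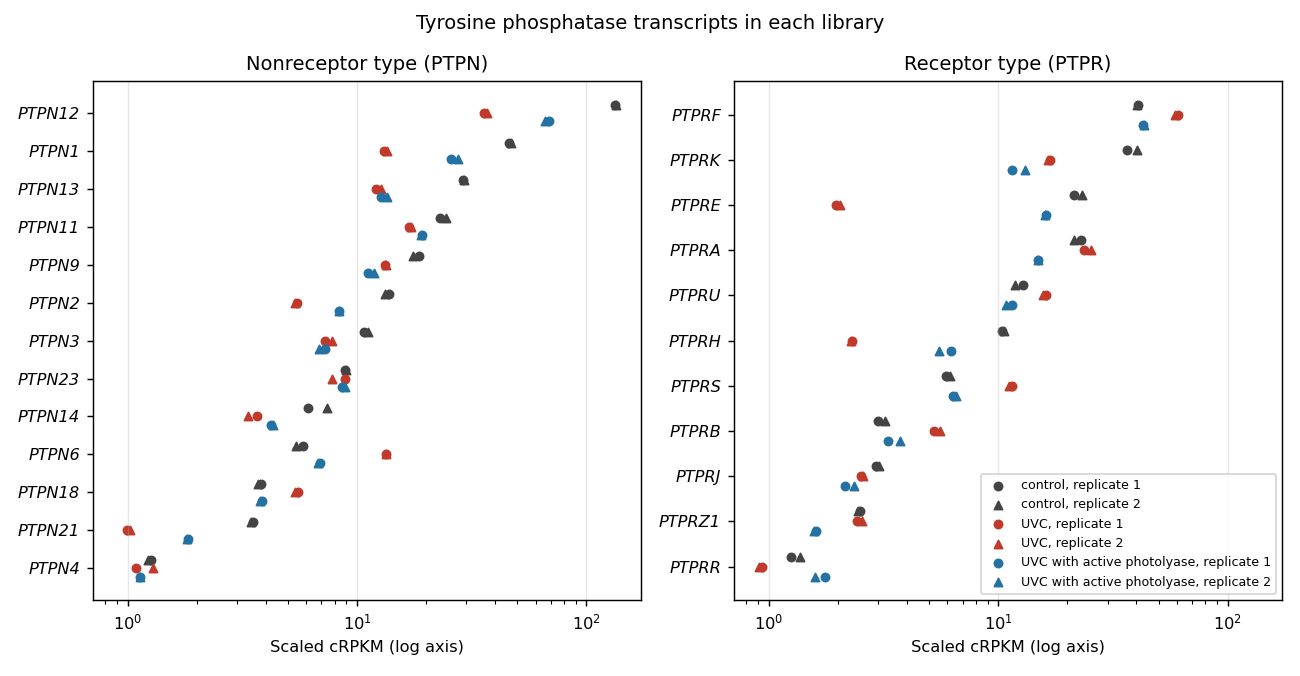
Scaled cRPKM (x axis, log scale) of the 24 tested members in each library, with colours for the 3 groups and circles and triangles for replicates 1 and 2. Genes are ordered by their control level, and PTPRE shows the widest gap, from 21.5 and 23.1 in control to 1.97 and 2.05 after UVC.

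The filter for testing was 1 cRPKM or more in 2 or more libraries, and 24 members passed it, 13 PTPN and 11 PTPR. Counts were compared by edgeR's quasi-likelihood test over all 11926 genes that passed this filter, and a gene was called at an adjusted p under 0.05. The first question was how 15 J/m2 altered these transcripts, so UVC was set against control. Of 13 PTPN genes 2 were higher and 9 lower after UVC, and of 11 PTPR genes 5 were higher and 5 lower. Over all tested genes 85.6% were called, 42.5% higher and 43.1% lower. The median log2 fold change was -0.54 for PTPN, 0.01 for PTPR and 0.00 for all tested genes. Falls of at least 2-fold were 8 of the 24, against 18.6% of all genes, and the rise of PTPN6 was the only one of that size, against 9.89%. Scaling by library totals in place of TMM factors put the all-gene median at 0.42. By that scaling 4 PTPN genes were higher and 7 lower, and 7 PTPR genes were higher and 3 lower. Over all 11926 tested genes 7095 were then called higher and 3542 lower.

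The next comparison set active photolyase against UVC, where white light and the active enzyme came together and cannot be told apart. Of the PTPN genes 6 were higher and 3 lower, and of the PTPR genes 3 were higher and 8 lower, beside 79.1% of all tested genes called, 39.2% higher and 39.9% lower. Rises of at least 2-fold numbered 3 (14% of all genes) and falls of that size 0 (1.37%). The medians were 0.07 and -0.48, against -0.04 for all genes. Library totals put the all-gene median at -0.34, and then 4 PTPN genes were higher and 8 lower, whereas the PTPR counts were 3 and 8 again. That scaling called 3318 of all 11926 tested genes higher and 6954 lower.

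Active photolyase was also compared with control, to ask how far the levels were from those of cells that were not irradiated. Here 1 PTPN gene was higher and 9 lower, and 2 PTPR genes were higher and 7 lower, beside 65.8% of all tested genes called, 33% higher and 32.9% lower. Falls of at least 2-fold numbered 2 (2.02% of all genes) and rises of that size 0 (4.06%). The medians were -0.65 and -0.40, against 0.01 for all genes. With library totals the PTPN counts were 1 and 9 and the PTPR counts 4 and 6. Over all 11926 tested genes the counts by that scaling were 5237 higher and 2840 lower, with a median of 0.12. The 3 comparisons share libraries, so their values are set side by side and not taken as separate evidence. Whether PTPN and PTPR differ as classes was not tested, since genes are not replicates of a condition.

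**Figure D3:**
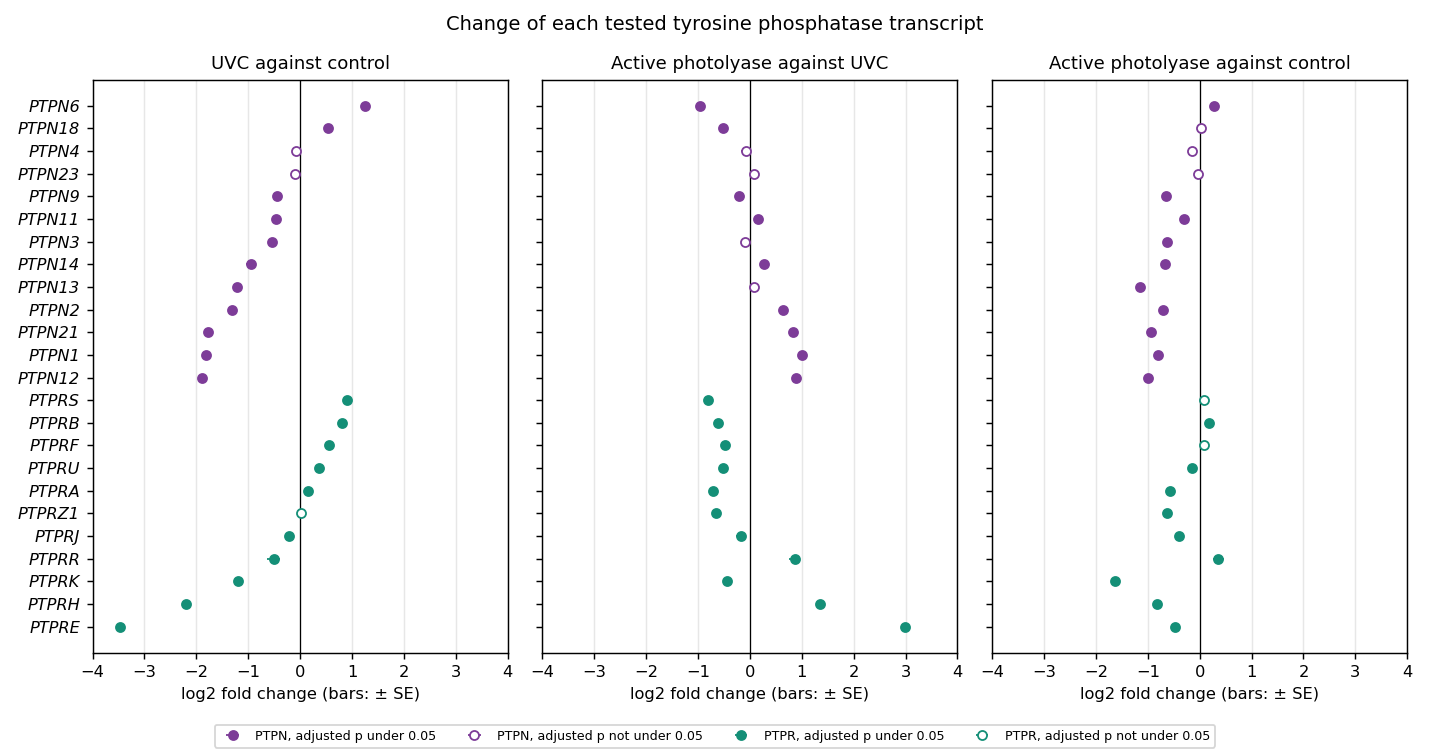
Log2 fold change (x axis) with its standard error for the 24 tested members in the 3 comparisons, PTPN in purple and PTPR in green; filled points have an adjusted p under 0.05. PTPRE has the lowest value after UVC (-3.47) and the highest for active photolyase against UVC (2.99), and PTPRK the lowest for active photolyase against control (-1.64).

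PTPN1 and PTPN2, which act on receptor kinases and on JAK and STAT proteins, fell after UVC. PTPN1 (ENSG00000196396), which is anchored to the endoplasmic reticulum and acts on the insulin and EGF receptors, had 46.1 and 47.0 scaled cRPKM in the control libraries, 13.1 and 13.5 in UVC and 25.65 and 27.5 under active photolyase. Its groups did not overlap, and the active photolyase libraries lay between the others. The log2 fold change was -1.81 ± 0.05 (SE) after UVC, 1.00 ± 0.05 for active photolyase against UVC and -0.81 ± 0.05 against control. PTPN2 (ENSG00000175354), its closest relative, had 13.8 and 13.2, then 5.45 and 5.35, then 8.35 and 8.33 scaled cRPKM. It showed the same order of groups, with changes of -1.32 ± 0.06, 0.63 ± 0.07 and -0.70 ± 0.06. The adjusted p (edgeR) of these 6 changes was at most 1.05e-06.

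PTPN12 (ENSG00000127947), a PEST-type phosphatase that acts on the focal adhesion proteins p130Cas and paxillin, was the most abundant member of the family in control and with active photolyase. It had 134 and 135 scaled cRPKM in control, 35.9 and 36.8 in UVC cells and 68.7 and 65.9 under active photolyase, with no overlap between groups. The changes were -1.89 ± 0.05 after UVC and 0.89 ± 0.05 for active photolyase against UVC, and against control it fell by 1.00 ± 0.05 on the log2 scale (adjusted p by edgeR at most 3.29e-09). PTPN18 (ENSG00000072135), of the same PEST type and known to act on ERBB2, moved the other way. It rose from 3.81 and 3.70 to 5.54 and 5.38 scaled cRPKM after UVC (0.54 ± 0.07, adjusted p = 4.42e-06 by edgeR) and was back at 3.85 and 3.78 with active photolyase. Its control and active photolyase libraries overlapped, with a difference of 0.02 ± 0.07 (adjusted p = 0.797).

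The SH2-domain pair, which bind phosphotyrosines on receptors and adaptors, split. PTPN6 (ENSG00000111679), best known as a brake on signalling in blood cells and also made in epithelia, had 5.82 and 5.41 scaled cRPKM in control, 13.3 and 13.4 in UVC cells and 6.88 and 6.76 under active photolyase. It was the tested member with the largest rise after UVC, 1.25 ± 0.07, followed by a fall of -0.97 ± 0.06, and it stayed above control by 0.28 ± 0.07 (adjusted p at most 0.00261 by edgeR). PTPN11 (ENSG00000179295), which promotes signalling from growth factor receptors to RAS, had 23.1 and 24.4, then 16.9 and 17.2, then 19.1 and 19.1 scaled cRPKM. Its fall of -0.47 ± 0.05 after UVC shrank to -0.06 with library totals (adjusted p = 0.297), and its rise of 0.16 ± 0.05 with active photolyase turned to -0.15 there. PTPN11 overlaps the ribosomal protein gene RPL6 on the other strand, and the use of strand in counting is not given in the sources used here, so its reads are uncertain.

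Of the 5 tested genes with a FERM domain, which ties proteins to the membrane skeleton, 4 fell after UVC, beside 43.1% of all tested genes. PTPN21 (ENSG00000070778) went from 3.51 and 3.46 scaled cRPKM in control to 0.999 and 1.02 in UVC cells and 1.83 and 1.81 under active photolyase (-1.78 ± 0.07, 0.84 ± 0.08 and -0.93 ± 0.07). PTPN21 overlaps SPATA7, and PTPN13 overlaps MAPK10, both on the other strand, so the reads of both are uncertain. Its relative PTPN14 (ENSG00000152104), which holds back the growth regulator YAP, had 6.13 and 7.41, then 3.65 and 3.36, then 4.20 and 4.33 scaled cRPKM. PTPN14 fell by 0.95 on the log2 scale after UVC, and its rise of 0.28 ± 0.09 with active photolyase turned to -0.02 with library totals. PTPN13 (ENSG00000163629), the largest nonreceptor member and one with several PDZ domains, was nearly as low with active photolyase as after UVC. It had 28.95 and 29.1 scaled cRPKM in control, 12.1 and 12.7 in UVC cells and 12.7 and 13.5 under active photolyase, so that both irradiated groups lay far below control (-1.22 ± 0.05 and -1.15 ± 0.05) and differed from each other by 0.07 ± 0.05 (adjusted p = 0.202 by edgeR), a difference that was -0.23 with library totals. PTPN3 (ENSG00000070159) had 10.7 and 11.2, then 7.27 and 7.74, then 7.26 and 6.81 scaled cRPKM. PTPN3 changed by -0.54 ± 0.06 after UVC and -0.64 ± 0.06 with active photolyase against control, and the first of these lost its call in limma without centring (-0.12, adjusted p = 0.0789). Active photolyase against UVC gave -0.09 ± 0.06 for PTPN3 (adjusted p = 0.145 by edgeR), which became a called fall with library totals (-0.40), median-centred limma (-0.27) and a filter of 5 cRPKM (-0.19). The fifth, PTPN4 (ENSG00000088179), stayed between 1.09 and 1.28 scaled cRPKM in all libraries and passed no test (-0.07 ± 0.09 after UVC), although it was higher after UVC with library totals (0.35).

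Of the remaining nonreceptor genes, PTPN9 (ENSG00000169410), which has a lipid-binding SEC14-type domain, had 18.6 and 17.5 scaled cRPKM in control, 13.2 and 13.4 in UVC cells and 11.2 and 11.9 under active photolyase. It was lowest with active photolyase, at -0.65 ± 0.05 against control (adjusted p = 3.48e-07 by edgeR). Its fall of -0.44 ± 0.05 after UVC was lost with library totals (-0.02, adjusted p = 0.704). PTPN23 (ENSG00000076201), which sorts receptors in endosomes and has little phosphatase activity, had 8.85 and 8.99, then 8.86 and 7.79, then 8.63 and 8.88 scaled cRPKM. Its groups overlapped in all 3 comparisons and it passed no test, with -0.10 ± 0.06 after UVC. Its call after UVC changed in both directions with the setting, to higher with library totals (0.32) and to lower without a filter (-0.19) or without UVC replicate 1 (-0.19). For active photolyase against UVC it was called lower with library totals (-0.24) and higher without UVC replicate 1 (0.17).

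The largest changes among the tested members were in a receptor-type gene with hardly any extracellular part. PTPRE (ENSG00000132334), which can switch on SRC-family kinases, had 21.5 and 23.1 scaled cRPKM in control, 1.97 and 2.05 in UVC cells and 16.1 and 15.97 under active photolyase. The UVC libraries stood far below all others. The fall was 11.1-fold (log2 fold change -3.47 ± 0.06, adjusted p = 1.91e-14 by edgeR) and the rise with active photolyase 7.96-fold (2.99 ± 0.06, adjusted p = 1.01e-13), which left it at -0.48 ± 0.05 against control. PTPRA (ENSG00000132670), its nearest relative and also an activator of SRC, did not share this course. PTPRA had 22.9 and 21.3 scaled cRPKM in control, 23.6 and 25.4 after UVC and 14.9 in both libraries with active photolyase. Its rise of 0.15 ± 0.06 after UVC was lost without control replicate 2 (0.10), UVC replicate 2 (0.10) or the filter (0.06). The rise was larger with library totals (0.57) and median-centred limma (0.41). The fall of -0.72 ± 0.06 with active photolyase against UVC was called (adjusted p = 5.31e-08 by edgeR). In the annotation PTPRA overlaps VPS16 on the same strand, so its reads are uncertain.

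Receptors of the fibronectin-repeat type differed among themselves. PTPRH (ENSG00000080031), first known from the stomach and gut lining, had 10.4 and 10.6 scaled cRPKM in control, 2.32 and 2.27 in UVC cells and 6.26 and 5.52 under active photolyase. It had the second lowest value of the tested members after UVC, -2.19 ± 0.08, then rose by 1.36 ± 0.08 and stayed below control by -0.83 ± 0.07 (adjusted p at most 3.03e-07 by edgeR). PTPRB (ENSG00000127329), the phosphatase of endothelial junctions, had 3.00 and 3.21, then 5.26 and 5.56, then 3.32 and 3.74 scaled cRPKM. It rose after UVC (0.80 ± 0.07) and was lower with active photolyase than after UVC (-0.62 ± 0.07). The endothelial list summed to 4.69 to 4.75 scaled cRPKM in control, 1.10 to 1.14 after UVC and 3.23 to 3.50 with active photolyase, the opposite order to that of PTPRB. PTPRJ (ENSG00000149177), which acts on several growth factor receptors, varied little, with 2.93 and 3.03, then 2.52 and 2.58, then 2.15 and 2.35 scaled cRPKM. Its fall of -0.22 ± 0.07 after UVC turned to a rise of 0.19 with library totals, while its difference of -0.40 ± 0.08 between active photolyase and control was called (adjusted p = 0.000394).

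The promoters of 2 receptor genes that moved in opposite directions after UVC are shown, both on chromosome 19. They run from 250 bases before the start to 50 bases after it, as RefSeq gives them for GRCh38.p14, and both lie on the minus strand. PTPRH is at chr19:55209452-55209751 and PTPRS at chr19:5340763-5341062. Capitals mark TGACGTCA, the site of the cAMP and ATF family, wherever it occurs. They also mark TGANTCA, which takes in the AP-1 site but allows any middle base. Both patterns read the same on either strand.
PTPRH: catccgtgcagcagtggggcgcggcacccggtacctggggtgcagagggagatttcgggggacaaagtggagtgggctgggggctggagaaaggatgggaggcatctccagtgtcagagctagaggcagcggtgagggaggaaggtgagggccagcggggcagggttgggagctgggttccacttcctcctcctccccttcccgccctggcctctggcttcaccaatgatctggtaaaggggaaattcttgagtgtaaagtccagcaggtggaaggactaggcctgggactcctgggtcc
PTPRS: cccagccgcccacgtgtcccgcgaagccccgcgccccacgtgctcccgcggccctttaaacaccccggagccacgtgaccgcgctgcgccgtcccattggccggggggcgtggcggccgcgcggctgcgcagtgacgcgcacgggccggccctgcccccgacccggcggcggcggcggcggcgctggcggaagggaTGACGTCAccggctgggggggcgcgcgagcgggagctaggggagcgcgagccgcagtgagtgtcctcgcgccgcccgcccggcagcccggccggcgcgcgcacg
The PTPRS window was 81.3% G and C with 55 CpG, and the PTPRH window 62.7% with 8 CpG. The medians were 58.7% and 14 over 35116 promoters in the table, and 65.3% and 24 over those of tested members in it. Of 31 members with a promoter there, 2 held TGACGTCA, PTPRS and PTPRU, against 2.25% of all genes, and 1 held TGANTCA, PTPN9, against 9.37%. These are matches of letters, and binding was not measured. Windows rich in CpG belonged to members of either direction, such as PTPRU (78.7%, 47 CpG), which rose after UVC, and PTPRK (76.3%, 44 CpG), which fell. Whether base content went with the direction of change was not tested.

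The LAR-type receptors, which bind heparan sulphate proteoglycans and sit at cell contacts, rose after UVC. PTPRF (ENSG00000142949), the most abundant receptor member, had 40.65 and 40.2 scaled cRPKM in control, 60.6 and 58.8 in UVC cells and 42.6 and 43.1 under active photolyase. PTPRS (ENSG00000105426) had 5.92 and 6.20, then 11.4 and 11.1, then 6.35 and 6.52. For both genes the UVC libraries stood above the other 4, by 0.56 ± 0.05 for PTPRF and 0.90 ± 0.05 for PTPRS against control (adjusted p at most 1.12e-07 by edgeR). Against control, active photolyase differed by 0.09 ± 0.05 in each gene and was not called with TMM factors (adjusted p = 0.142 and 0.16), but was called higher for both with library totals (0.20 each). The third gene of this type, PTPRD, had no read in any library, a count that allows up to 3 in a library.

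The adhesion receptors with a MAM domain, which bind to their own kind on the next cell, went apart. PTPRK (ENSG00000152894), known in keratinocytes as a phosphatase of the EGF receptor, had 36.6 and 40.3 scaled cRPKM in control, 16.8 and 16.6 in UVC cells and 11.5 and 13.1 under active photolyase. It was lowest with active photolyase, and the groups did not overlap. The change was -1.20 ± 0.06 after UVC, a further -0.44 ± 0.07 with active photolyase against UVC, and -1.64 ± 0.07 against control, the lowest value of the tested members in that comparison (adjusted p at most 3.07e-05 by edgeR). PTPRU (ENSG00000060656) had 12.8 and 11.85, then 16.2 and 15.7, then 11.45 and 10.8 scaled cRPKM. It rose after UVC (0.37 ± 0.06) and was lower with active photolyase than after UVC (-0.52 ± 0.06), and its difference from control of -0.15 ± 0.06 was lost with library totals (-0.04, adjusted p = 0.6) or without control replicate 1 (-0.09). PTPRM, of the same type, had 83 and 121 reads in control, 122 and 118 in UVC cells and 78 and 100 under active photolyase and was under the filter.

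PTPRZ1 (ENSG00000106278), a proteoglycan receptor of glia and of the growth factor pleiotrophin, was low with active photolyase. It had 2.505 and 2.45 scaled cRPKM in control, 2.43 and 2.54 in UVC cells and 1.60 and 1.58 under active photolyase. The change after UVC was 0.01 ± 0.06 (adjusted p = 0.908 by edgeR), though it was 0.43 with library totals, and that for active photolyase against UVC was -0.65 ± 0.07 (adjusted p = 9.58e-07). PTPRR (ENSG00000153233), which binds ERK kinases, was near the filter, with 1.25 and 1.37, then 0.940 and 0.905, then 1.76 and 1.59 scaled cRPKM. It was the only tested member called higher with active photolyase both against UVC (0.86 ± 0.11) and against control (0.36 ± 0.11). Its fall of -0.51 ± 0.12 after UVC was lost with library totals (-0.09, adjusted p = 0.48), and its difference from control was lost without control replicate 1 (0.29) or without active photolyase replicate 1 (0.28).

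The other 12 members were under the filter. A fit without a filter took in 11 of them, all but PTPRD, and 65.8% of all genes in it were called for UVC against control, 56.5% for active photolyase against UVC and 47.3% for active photolyase against control. PTPRQ had 95 and 118 reads in control, 301 and 307 in UVC cells and 274 and 211 under active photolyase, or 0.20 and 0.25, 0.76 and 0.78, and 0.57 and 0.46 deposited cRPKM. Its irradiated libraries were all above control, and that fit called it higher after UVC (1.27 ± 0.15, adjusted p = 9.22e-07 by edgeR) and with active photolyase against control (1.05 ± 0.15). PTPRG, a relative of PTPRZ1 with 68 to 157 reads, was called higher after UVC (0.50 ± 0.19, adjusted p = 0.0283 by edgeR) and lower with active photolyase than after UVC (-0.80 ± 0.19). PTPRN2, a granule protein of hormone cells, had 58 to 133 reads and was lower with active photolyase than after UVC (-0.72 ± 0.21). PTPN5, PTPN7, PTPN22, PTPRC, PTPRN, PTPRO and PTPRT, most of them known from brain or blood cells, had at most 14 reads in any library. Of these PTPRC, with 14 and 7 reads in control and 0 and 2 in UVC cells, was called lower after UVC (adjusted p = 0.00493 by edgeR), and PTPN22, with 1 and 2 reads in UVC cells and 4 and 12 under active photolyase, was called higher in the latter (adjusted p = 0.0484).

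Members spanned more of the genome than most genes. The 24 tested members had a median span of 122 kb in GENCODE release 29, against 30.15 kb over the 11728 tested genes with a span, and the 11 PTPR genes (median 179 kb, 28.3 to 552 kb) were longer than the 13 PTPN genes (103 kb, 14.85 to 224 kb). These spans come from GRCh38, while the reads were aligned to hg19. Over all tested genes Spearman's rho of span with the log2 fold change was -0.24 for UVC against control, 0.02 for active photolyase against UVC and -0.44 for active photolyase against control. Over the 24 members it was -0.11, 0.01 and -0.14, over the PTPN genes -0.26, 0.18 and -0.45, and over the PTPR genes -0.25, 0.04 and -0.04. These are descriptions across genes that share libraries. With the effective length of the transcript in place of span, rho over the members was 0.24, -0.22 and 0.12.

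The 2 shortest tested members rose after UVC and several long members fell, but the middle of the range held both. These 2, PTPN6 and PTPN18, lay under 20 kb and were the only PTPN genes called higher after UVC with TMM factors. Of all tested genes of that span 54.3% were called higher. With library totals that share was 70.8%, and PTPN23, at 32.4 kb, and PTPN4, at 224 kb, were called higher as well. PTPRH, at 28.3 kb, was lower after UVC than all but 2.83% of the genes of 20 to 50 kb. Between 100 and 200 kb lay 10 members, of which 3 were higher and 6 lower after UVC, beside 31.6 and 54.2% of all genes of that span. With library totals 5 of them were higher and 4 lower, beside 48.3 and 40.4%. These 10 hold both PTPRE (-3.47) and PTPRS (0.90), at 179 and 182 kb. Within that range PTPRE stood above 1.65% and PTPRS above 93.6% of the genes in log2 fold change. Of the 5 members of 200 kb and over, 4 were lower after UVC and none higher, beside 47.0 and 37.6% of all genes. With library totals 3 of these 5 were lower and 1, PTPN4, higher, beside 34.4 and 55.4%.

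With active photolyase against control, 8 of the 10 members of 100 to 200 kb were lower, beside 58.9% of all genes of that span, and 3 of the 5 members of 200 kb and over, beside 65.2%. The genes of 200 kb and over had a median log2 fold change of -0.39 in that comparison, and those under 20 kb 0.19. PTPRK, the longest tested member at 552 kb, stood above 2.13% of the genes of 200 kb and over, while PTPRR, at 283 kb, stood above 89.9% of them. PTPRH was above 0.84% of the genes of 20 to 50 kb, and PTPN21 above 1.34% of those of 50 to 100 kb.

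**Figure D4:**
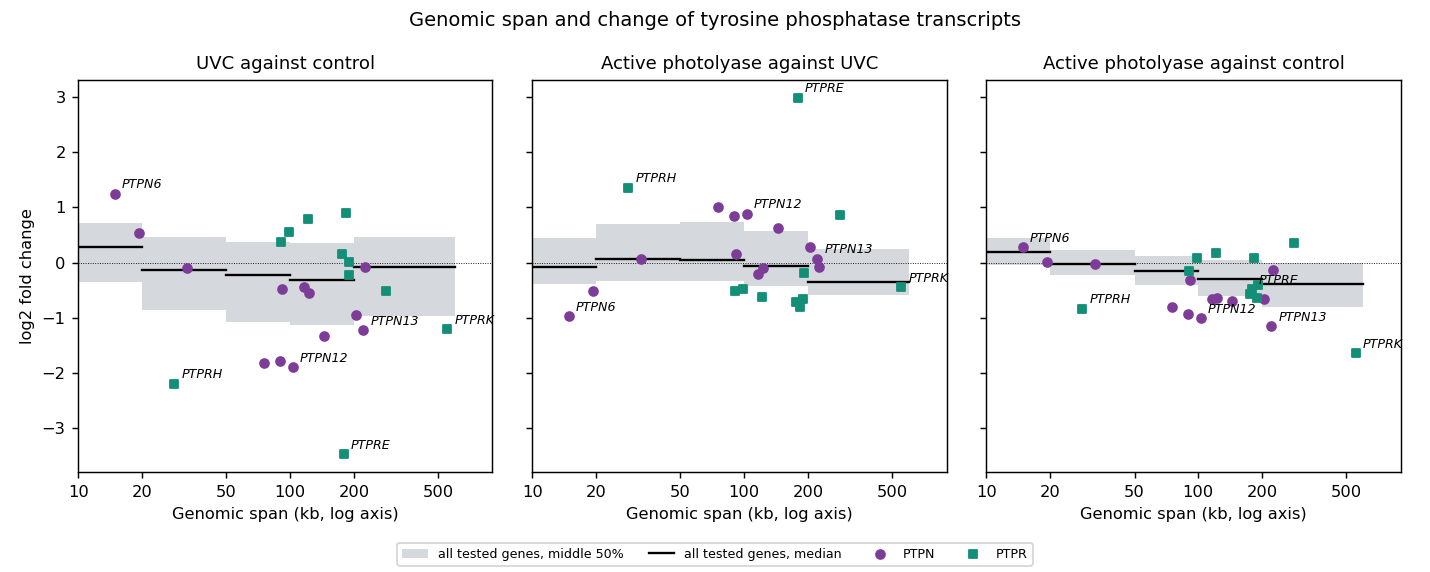
Log2 fold change (y axis) of the 24 tested members against genomic span in kb (x axis, log scale) in the 3 comparisons, with the median (line) and middle 50% (grey) of all tested genes in 5 ranges of span. The outer ranges are open-ended and are drawn with closed ends. PTPRE and PTPRS lie at nearly the same span, at -3.47 and 0.90 after UVC.

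The kinases, partners and ligands around the phosphatases came from lists written down for this report. Of 43 receptor tyrosine kinases 22 were tested, and 5 were higher and 13 lower after UVC (median log2 fold change -0.79), 12 higher and 8 lower with active photolyase against UVC (0.40), and 4 higher and 14 lower against control (-0.18). Over all tested genes the shares higher and lower were 42.5 and 43.1%, 39.2 and 39.9%, and 33 and 32.9%, to be set beside this and the next lists. MET, the receptor of hepatocyte growth factor, fell from 55.0 ± 1.97 to 7.465 ± 0.358 scaled cRPKM (SD, n = 2) after UVC and was 26.8 ± 0.729 with active photolyase. IGF1R, the receptor of insulin-like growth factors, went from 44.85 ± 2.21 to 7.13 ± 0.161 and back to 40.8 ± 1.89. PTK7 (1.13 ± 0.05) and FGFR3 (1.35 ± 0.06) rose. Of 22 tested nonreceptor tyrosine kinases 6 were higher and 12 lower after UVC (median -0.47). SRC, a kinase that PTPRA and PTPRE can activate, fell by 2.08 on the log2 scale and rose by 1.55 ± 0.05 with active photolyase, and PTK2B fell by 2.42. TYK2 (0.98 ± 0.06) and TNK2 (0.52 ± 0.06) rose.

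Adaptors, substrates and binding partners were mostly lower after UVC, 24 of 32 tested, with 4 higher and a median of -0.80, beside 43.1 and 42.5% of all tested genes. With active photolyase against UVC 23 were higher and 7 lower. E-cadherin (CDH1), which holds keratinocytes together, fell from 378 ± 10.9 to 80.6 ± 1.27 scaled cRPKM and was 207 ± 6.06 with active photolyase. The liprin gene PPFIA1, whose product binds PTPRF, fell by 2.12 on the log2 scale. The liprin genes PPFIBP2 (1.59 ± 0.09) and PPFIA3 (1.87 ± 0.13) rose. PPFIA3 averaged only 0.322 scaled cRPKM in control cells, against 1.17 in UVC cells and 0.66 under active photolyase. It passed the filter through its UVC libraries only, which favours a rise, and it is among the 4 higher. Of 13 tested extracellular ligands and proteoglycans 6 were higher and 6 lower after UVC (median -0.11). The growth factor midkine (MDK), a ligand of PTPRZ1, rose by 0.61 ± 0.06, and GPC2, a proteoglycan of low level here, by 1.83 ± 0.18. GPC2 averaged 0.345 scaled cRPKM in control cells, 1.24 in UVC cells and 0.53 under active photolyase. Like PPFIA3, it passed the filter through its UVC libraries only, which favours a rise, and it is among the 6 higher. THBS1 (-2.52 ± 0.06) and the syndecan SDC4 (-1.39 ± 0.05) fell. Of 16 tested tyrosine phosphatases outside the PTPN and PTPR names 6 were higher and 7 lower (median 0.02), with rises of SSH3 (0.98 ± 0.06) and PTPDC1 (1.42 ± 0.11) and falls of SSH1 (-2.27 ± 0.07) and CDC25A (-1.99 ± 0.08). Each gene named from these lists kept its direction after UVC with library totals, and its adjusted p was at most 2.83e-06 by edgeR.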

How the data were processed

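RNA from 6 HaCaT libraries, 2 in each of 3 groups, was made into libraries by TruSeq, per the labels' protocols. Reads were aligned with Bowtie to hg19, per the submitters' processing notes; strand setting, annotation, counting rule and aligner version: not given in the sources used here. The authors deposited an unnormalised read count beside a corrected RPKM (cRPKM) for each of 19847 Ensembl genes, of which 354 had no value. The deposited RPKM equals the count divided by an effective length and the library total, a length that varied across libraries by no more than 0.183% (6664 genes over 5 cRPKM). Symbols came from a table of Ensembl names (19146 of 19847 matched), spans from GENCODE release 29.

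Counts were fitted with edgeR 4.0.16 (R 4.3.3; quasi-likelihood F test, two-sided, 3 group means, TMM factors) over 11926 genes at 1 cRPKM or more in at least 2 libraries, with Benjamini-Hochberg adjustment over all of them and a threshold of 0.05. On simulated counts from these libraries (11926 genes, 50 changed at each size) 74% of the 1.25-fold and 96% of the 1.5-fold changes were found in the simulation of UVC against control. The simulation gave every gene the same spread beyond sampling noise and changed few genes, whereas 85.6% were called in the real comparison. Its rates therefore do not measure how many real changes were found. In all 3 groups the replicates' counts were further apart than sampling noise. Each member is named, and from each list the up to 2 genes of smallest p in each direction for UVC against control; other genes are named where a statement about a list rests on them. Members, lists and rules were chosen with earlier results of these data known. Alternatives were library totals, RLE factors, DESeq2 1.42.0, limma 3.58.1 on log2(cRPKM + pseudocount of 0.1, 1 or 2), other filters, each library left out and the replicate number as a block.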

Additional observations from a re-analysis of the deposited data

How the results depend on the processing

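Alternatives of scaling, tool, filter and library left out were run for the counts, medians and rank correlations and for the 24 tested members in all 3 comparisons, except that 19 members passed a filter of 5 cRPKM, that effective length bears on the correlation only, and that leaving out members bears on the counts, medians and correlations. Over the single members 1031 values kept their side of the threshold with no called change reversed, 47 lost the call, 27 gained it and 32 reversed. The cause of these moves was not tested. Library totals and limma, centred or not, leave out the TMM factors, and other filters change the genes tested. Leaving out members that overlap another counted gene, or PTPRE, was chosen after seeing the data.

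For UVC against control, the count of members called higher was 11 with library totals and with limma at a pseudocount of 2. Over all 11926 tested genes 7095 and 7084 were called higher in those settings, against 5074 with TMM factors. The count of members called lower was 9 with limma at pseudocounts of 0.1, 1 and 2. Over all tested genes 3520, 3519 and 3517 were called lower there, against 5140 with TMM factors. The PTPN median became -0.13 with library totals, -0.13, -0.12 and -0.11 with limma at those pseudocounts, -0.24 with limma median-centred, -0.60 without a filter, -0.43 with a filter of 5 cRPKM and -0.49 without overlapping members. The PTPR median became 0.43, then 0.41, 0.30 and 0.24, then 0.17, 0.28, 0.38 and -0.11 in the same order, and 0.08 without PTPRE. The rank correlation with span was -0.17 with limma at a pseudocount of 2, 0.06 without a filter, -0.24 with 5 cRPKM, 0.24 with effective length, -0.18 without overlapping members and -0.09 without PTPRE. With library totals and limma at 0.1, 1 and 2, PTPN23 reversed to 0.32, 0.31, 0.28 and 0.26, PTPN4 to 0.35, 0.32, 0.19 and 0.13, and PTPRJ to 0.19, 0.19, 0.14 and 0.11. With median-centred limma PTPN23 was 0.16 and PTPRJ 0.01.

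For active photolyase against UVC, the count called higher was 5 with a filter of 5 cRPKM. Of 8646 genes that passed this filter, 19 of them members, 3393 were called higher. The PTPN median reversed to -0.23 with library totals, -0.23, -0.21 and -0.14 with limma, -0.12 with median-centred limma and -0.02 with 5 cRPKM, and was 0.16 without a filter and -0.00 without overlapping members. The PTPR median was -0.79 with library totals, -0.78, -0.70 and -0.64 with limma, -0.62 centred, -0.59 with 5 cRPKM, -0.46 without overlapping members and -0.50 without PTPRE. The correlation with span was -0.01 with limma at 0.1, -0.19 without a filter, 0.06 with 5 cRPKM, -0.22 with effective length, 0.09 without overlapping members and -0.03 without PTPRE. With library totals and limma at 0.1, 1 and 2, PTPN23 reversed to -0.24, -0.23, -0.21 and -0.19, PTPN14 to -0.02, -0.02, -0.02 and -0.01, PTPN13 to -0.23, -0.23, -0.22 and -0.20, and PTPN11 to -0.15, -0.15, -0.14 and -0.13. With median-centred limma PTPN13 was -0.13 and PTPN11 -0.05.

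For active photolyase against control, the count called higher was 5 with library totals and with limma at 0.1, 1 and 2. Over all 11926 tested genes 5237 were called higher with library totals and 5146, 5114 and 5091 with limma, against 3933 with TMM factors. The PTPN median was -0.54 with library totals, -0.53, -0.47 and -0.42 with limma, -0.51 centred, -0.69 without a filter and -0.62 with 5 cRPKM. The PTPR median was -0.29, then -0.29, -0.21 and -0.16, then -0.25, -0.33 and -0.29 in that order, and -0.27 without overlapping members or without PTPRE. The correlation with span was -0.08 without a filter, -0.40 with 5 cRPKM and 0.12 with effective length.

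Leaving out each library in turn gave PTPN medians of -0.59 to -0.50, 0.01 to 0.15 and -0.68 to -0.61 in the 3 comparisons, in the order above. PTPR medians were -0.03 to 0.05, -0.52 to -0.46 and -0.46 to -0.34, and correlations with span -0.13 to -0.11, -0.05 to 0.01 and -0.19 to -0.11. The members called higher with active photolyase against control numbered 1 to 3, and 1 without control replicate 1.

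Replicate numbers were not taken as pairs: deviations of same-numbered libraries correlated at -0.0286, -0.0466 and 0.121. With the replicate block the members called higher and lower were 7 and 14, 9 and 11, and 3 and 16, as without it. Over all 11926 tested genes the block gave 5086 and 5152, 4690 and 4790, and 3981 and 3956. Reads limit the 12 members under the filter, where a count of 0 allows up to 3 reads in a library of at least 57669389.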
